A study of Mus musculus with 62 samples.

Results

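The genes described here encode enzymes and regulators of cholesterol and fatty acid synthesis, and their transcripts were measured in mouse lung after an allergen challenge. They were chosen by name: 32 genes were listed, and a gene was measured where a row of the deposited table carried its symbol and no other. By that rule 29 of the 32 had a row, and the table held 16715 transcript clusters in all, of which 14959 carried 1 symbol. Acat2, Idi1 and Me1 had no such row and were not measured here.

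RNA came from the right lower lobe of 48 male mice of the inbred strains BALB/cJ and C57BL/6J and was hybridised to 62 exon arrays. Every mouse, controls included, was sensitised with 10 µg of Der p 1, a protease allergen of house dust mites, given into the peritoneum on days 1 and 8. On day 15 the mice received either 50 µg of Der p 1 or PBS, and the lungs were collected 72 hours later, on day 18. There were 11 PBS and 14 Der p 1 mice of BALB/cJ, and 11 PBS and 12 Der p 1 mice of C57BL/6J; no unsensitised mice belong to these groups. Values are the authors' log2 signals per transcript cluster, the arrays of the 7 mice that had 3 each were averaged, and differences are log2 ± standard error from limma with p-values adjusted over all clusters.

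Cholesterol is built from acetyl-CoA through mevalonate, farnesyl diphosphate, squalene and lanosterol, and fatty acids are built from the same acetyl-CoA through malonyl-CoA. The transcription factors encoded by Srebf1 and Srebf2 drive most of these genes: when membrane sterol is low, the escort protein SCAP carries them from the endoplasmic reticulum to the Golgi for cleavage, and when sterol is high the INSIG proteins hold SCAP back. In lung, alveolar type II cells make fatty acids for surfactant, and alveolar macrophages take up and clear surfactant lipid.

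The whole lobe was sampled, so fewer cells of a type and less RNA per cell cannot be told apart. Sftpc, the surfactant gene that defines alveolar type II cells, had a mean log2 signal of 13.3. Mouse numbers began with 5 or with 6, and the meaning of these number series was not given in the sources used here; each group held 4 to 8 mice of each series. The SD of an array's values over all clusters ranged from 1.44 to 2.09 and was lowest in mouse532, a Der p 1 mouse of C57BL/6J. A pair of BALB/cJ mice went against their labels. The library labelled PBS of mouse633 had the goblet cell gene Clca1 at 12.6, against 5.12 to 7.74 in the other PBS mice of that strain. The library labelled Der p 1 of mouse634 had it at 6.43, against 10.1 to 12.6 in the others.

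After Der p 1, 6 of the 29 genes were lower in C57BL/6J lungs and 0 were higher. The genes that fell were Pmvk and Lss of sterol synthesis, the sterol sensor Insig2, the acetyl-CoA producing enzyme Acly, and the fatty acid elongases Elovl1 and Elovl5, by 0.23 to 0.58 on the log2 scale. The first and last enzymes measured in the sterol route, Hmgcs1 and Dhcr7, and the transcription factor genes Srebf1 and Srebf2 did not pass the test. Of all clusters, 8.97% were lower and 9.85% were higher in this comparison, so the genes' share, 20.7%, stood above the share of lower clusters in the whole table. Signals above the median cluster were lower more often: in a fit of those clusters alone, 17.3% were lower and 8.72% higher, and 6 of the 27 genes among them were lower. Set beside clusters of like signal, the share of lower genes was near the background.

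At an unadjusted p under 0.05, 12 genes were lower and 0 were higher in C57BL/6J, and 22 of 29 differences were below 0 (75.9%). Over all clusters 15.0% were lower and 19.4% higher at that p, and 40.9% were below 0. The median difference was −0.23, where the median of all clusters was 0.07 and that of clusters above the median signal −0.07. Shares at the unadjusted p and below 0 are not given for those brighter clusters alone. PBS and Der p 1 ranges overlapped for every one of the 29 genes, and groups that do not overlap were found for 0.0479% of all clusters.

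Among the mevalonate enzymes, Hmgcs1, Mvk, Pmvk, Mvd and Fdps were measured, and 1 of these 5 fell in C57BL/6J. Pmvk, phosphomevalonate kinase, ran from 6.92 through a median of 7.33 to 7.74 in the PBS mice and from 6.44 through 6.82 to 7.43 in the Der p 1 mice. The upper part of the Der p 1 range overlapped the PBS range, while 11 of 12 Der p 1 mice lay below the PBS mean. Its mean went from 7.36 ± 0.28 (SD, n = 11) to 6.82 ± 0.29 (SD, n = 12), a difference of −0.54 ± 0.14 and a 1.45-fold lower signal (limma adjusted p = 0.00485).

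Hmgcs1, the cytosolic synthase at the head of the mevalonate route, had medians of 8.22 after PBS and 8.32 after Der p 1 in C57BL/6J, and its range after Der p 1, 7.49 to 8.62, took in the whole PBS range, 7.76 to 8.59. Its difference was −0.01, with a 95% interval of −0.21 to 0.19, and in BALB/cJ it was 0.02, with an interval of −0.17 to 0.21. Mvk, mevalonate kinase, differed by −0.18 ± 0.08 in C57BL/6J (limma adjusted p = 0.104), and Mvd, the decarboxylase, by 0.11 ± 0.08 (limma adjusted p = 0.305). The row of Fdps, farnesyl diphosphate synthase, had a mean signal of 3.66 and an SD of 0.542 between arrays of the same mouse, the widest of the 29 genes, and its interval in C57BL/6J, −0.80 to 0.25, says little in either direction.

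Of the 10 enzymes from squalene synthesis onwards, 1 passed in C57BL/6J. Lss, lanosterol synthase, ran from 6.37 through 6.66 to 6.997 in PBS mice and from 6.27 through 6.46 to 6.64 in Der p 1 mice, and 12 of 12 Der p 1 mice were below the PBS mean. The fall of 0.23 ± 0.07 on the log2 scale was small but uniform (limma adjusted p = 0.0278), and it missed the threshold without mouse536, mouse656 or mouse657, at up to 0.0667.

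Others in the middle of the sterol route had differences below 0 that did not pass. Msmo1, the methylsterol monooxygenase, differed by −0.58 ± 0.25 (limma adjusted p = 0.0891) and spread widely, from 8.08 to 10.43 in the PBS mice and from 7.80 to 9.72 in the Der p 1 mice. Nsdhl, which acts beside Msmo1 in removing methyl groups from the sterol ring, differed by −0.25 ± 0.11 (limma adjusted p = 0.0875) with 12 of 12 mice below the PBS mean. Hsd17b7, the ketoreductase of the same complex, differed by −0.34 ± 0.15 (limma adjusted p = 0.0981), and Fdft1, squalene synthase, by −0.26 ± 0.13 (limma adjusted p = 0.158). Sqle, squalene epoxidase, and Cyp51, the lanosterol demethylase, differed by −0.09 ± 0.16 and 0.15 ± 0.16. The last steps, Ebp, Sc5d and Dhcr7, differed by 0.04, −0.02 and 0.09, with intervals that stayed within −0.30 and 0.25. Stard4, which carries sterol between membranes, differed by 0.02, with an interval of −0.21 to 0.26.

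**Figure D1:**
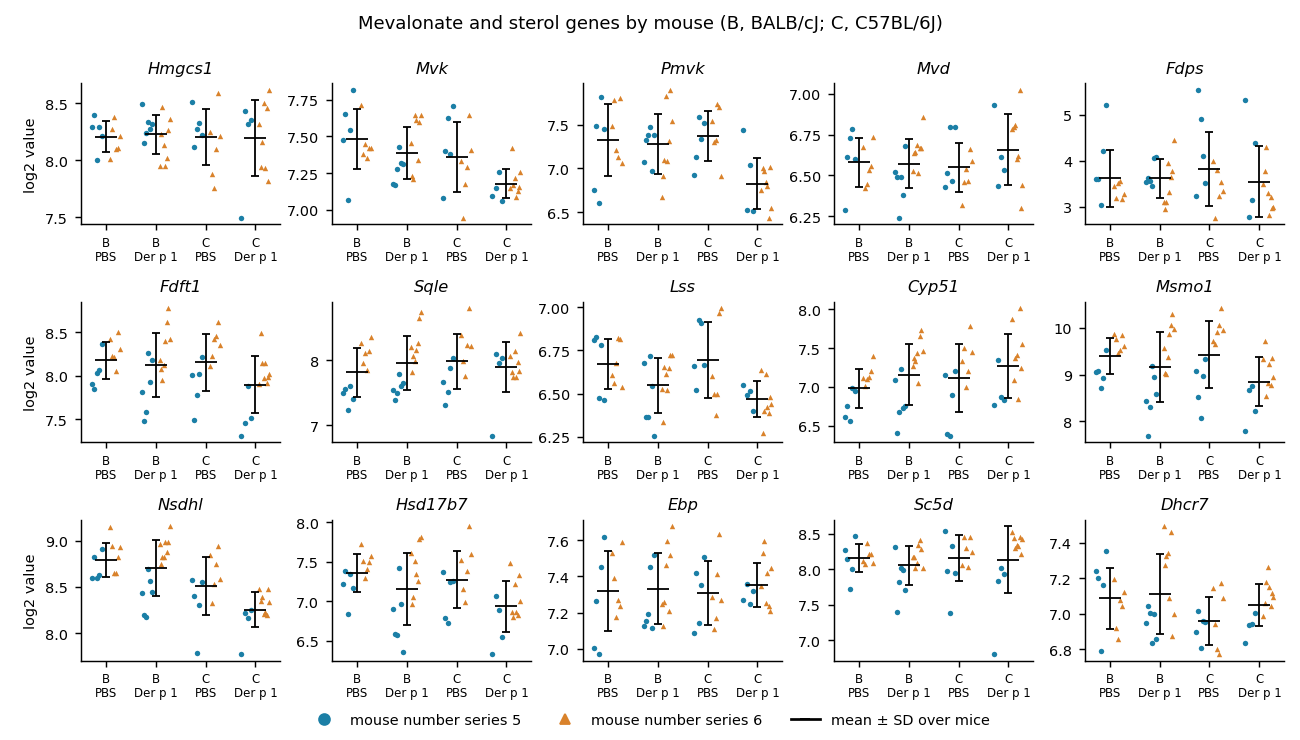
Log2 signal (vertical axes) of the measured mevalonate and sterol enzymes in each mouse, by strain and challenge (horizontal axes); bars are group mean ± SD and symbols mark the number series. Pmvk and Lss are lower after Der p 1 in C57BL/6J, Hmgcs1 has like means in the 4 groups, and Msmo1 lies higher in series 6 than in series 5.

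Of the 5 sensors and regulators, Insig2 alone passed in C57BL/6J. It ran from 6.94 through 8.19 to 8.79 after PBS and from 6.95 through 7.49 to 8.19 after Der p 1, so that the medians parted while the low ends met. The difference was −0.58 ± 0.17 (limma adjusted p = 0.0138), with 11 of 12 mice below the PBS mean. Insig1, its paralogue and a target of the SREBP factors, differed by −0.27 ± 0.12 (limma adjusted p = 0.105). Scap, the escort, differed by 0.02, with an interval of −0.16 to 0.19. Srebf1 differed by −0.08, with an interval of −0.25 to 0.09. Srebf2 differed by −0.10, with the wider interval of −0.44 to 0.24. Within the series it differed by −0.03 in series 5 and 0.02 in series 6, and its level in series 6 minus series 5 was −0.75. The arrays measure transcripts, and cleavage of these factors was not measured.

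In fatty acid synthesis, Acly fell and Acaca and Fasn did not pass. Acly, ATP-citrate lyase, ran from 9.67 through 9.84 to 10.16 after PBS and from 8.79 through 9.41 to 9.96 after Der p 1 in C57BL/6J. Only the upper part of the Der p 1 values reached the PBS range, and 11 of 12 lay below the PBS mean. The difference was −0.43 ± 0.10, a 1.35-fold lower signal (limma adjusted p = 0.00196), the smallest adjusted p of the 29 genes. Acaca, the carboxylase that makes malonyl-CoA, differed by −0.17 ± 0.11 (limma adjusted p = 0.243), and Fasn, fatty acid synthase, by −0.24 ± 0.14 (limma adjusted p = 0.225).

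Of the 5 elongases and desaturases, 2 fell in C57BL/6J. Elovl5, which lengthens polyunsaturated fatty acids, ran from 9.40 through 10.42 to 10.57 after PBS and from 9.08 through 9.74 to 10.27 after Der p 1. Its difference was −0.58 ± 0.13 (limma adjusted p = 0.00198), with 11 of 12 mice below the PBS mean. Elovl1, the elongase of very long saturated chains, ran from 10.18 through 10.71 to 11.19 and from 9.21 through 10.22 to 10.84.

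The difference of Elovl1 was −0.45 ± 0.15, near the threshold (limma adjusted p = 0.0341), with 9 of 12 mice below the PBS mean. It missed the threshold without any 1 of mouse532, mouse537, mouse540, mouse648, mouse655, mouse656, mouse657, mouse659 or mouse661, and without mouse532 it was −0.36 (limma adjusted p = 0.0843). The desaturases Fads1 and Fads2, which act in the synthesis of arachidonic and docosahexaenoic acid, differed by −0.36 ± 0.15 (limma adjusted p = 0.0821) and −0.26 ± 0.16 (limma adjusted p = 0.242). Elovl6, which lengthens palmitate, had the highest difference of the 29 genes, 0.19 ± 0.16 (limma adjusted p = 0.402).

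**Figure D2:**
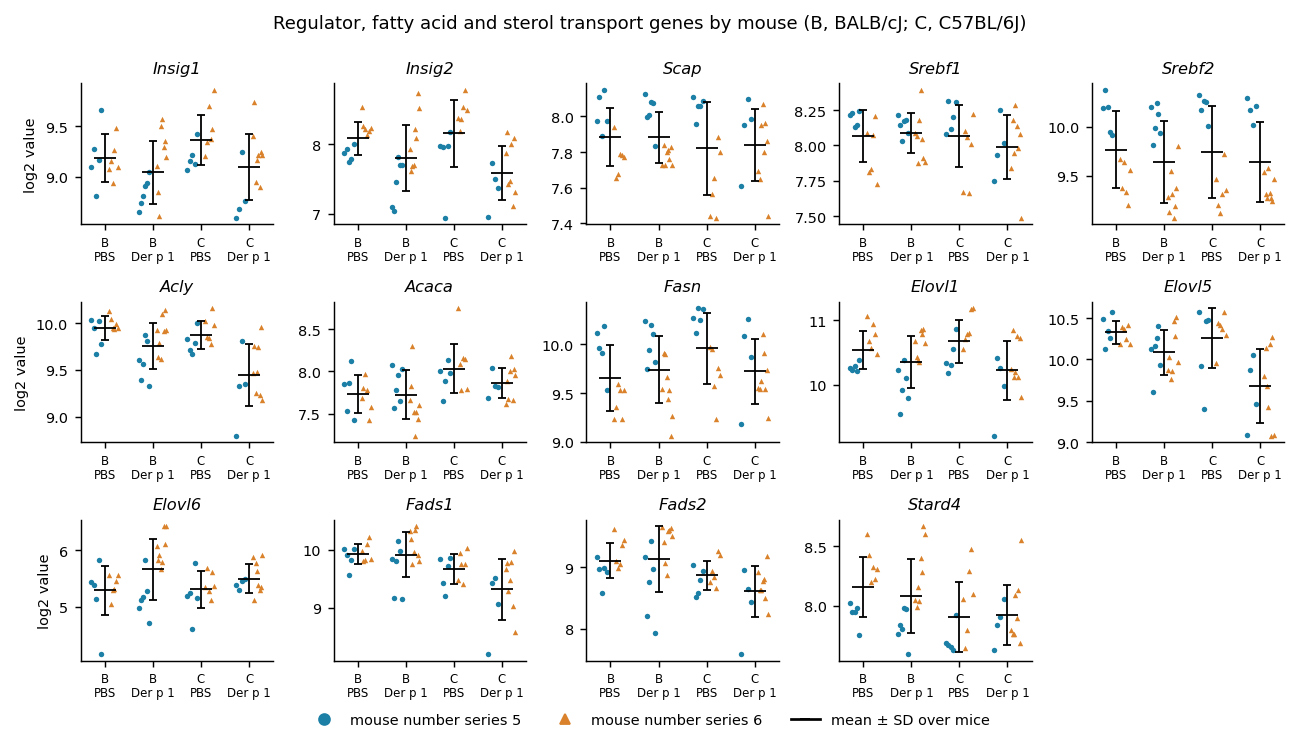
Log2 signal (vertical axes) of the regulators, the fatty acid enzymes and Stard4 in each mouse, by strain and challenge (horizontal axes); bars are group mean ± SD and symbols mark the number series. Insig2, Acly, Elovl1 and Elovl5 are lower after Der p 1 in C57BL/6J, and Srebf2 and Fasn lie lower in series 6 than in series 5 in all groups.

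The number series and the spread of the arrays moved with these results. Array SD averaged 1.86 ± 0.15 (SD, n = 12) in the Der p 1 mice of C57BL/6J and 1.96 ± 0.11 (SD, n = 11) in their PBS mice. Across the 48 mice, as deviations from group means, array SD correlated with Elovl1 at r = 0.858, with Acly at 0.812, with Insig2 at 0.765 and with Elovl5 at 0.701, but with Lss at 0.111 and Pmvk at −0.094. These r values describe the arrays, whose clusters share 1 scaling. With array SD as a covariate, Pmvk differed by −0.57 (limma adjusted p = 0.00625), Acly by −0.26 (limma adjusted p = 0.00446), Elovl5 by −0.38 (limma adjusted p = 0.0101) and Lss by −0.21 (limma adjusted p = 0.0493). Insig2, at −0.29 (limma adjusted p = 0.0895), and Elovl1, at −0.16 (limma adjusted p = 0.235), no longer passed. The part of array spread in the falls of Insig2 and Elovl1 was not tested.

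With the number series as a covariate, 12 of the 29 genes were lower in C57BL/6J, where 15.6% of all clusters were lower. The added genes were Fdft1, Msmo1, Nsdhl, Hsd17b7, Insig1 and Fads1, of which Msmo1 differed by −0.69 (limma adjusted p = 0.00176). Series 6 alone, with 6 PBS and 8 Der p 1 mice, gave 7 lower genes, where 13% of all clusters were lower. Series 5 alone, with 5 and 4, gave 0, where 0.574% of all clusters were lower. The falls of the 6 genes had the same direction in both series. Pmvk differed by −0.42 in series 5 and −0.62 in series 6, Acly by −0.48 and −0.43, and Elovl5 by −0.55 and −0.63. Insig2 differed by −0.41 and −0.78, Elovl1 by −0.48 and −0.51, and Lss by −0.25 and −0.20. With number series and array SD together, 3 genes passed in C57BL/6J, namely Pmvk, Insig2 and Acly, all lower.

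**Figure D3:**
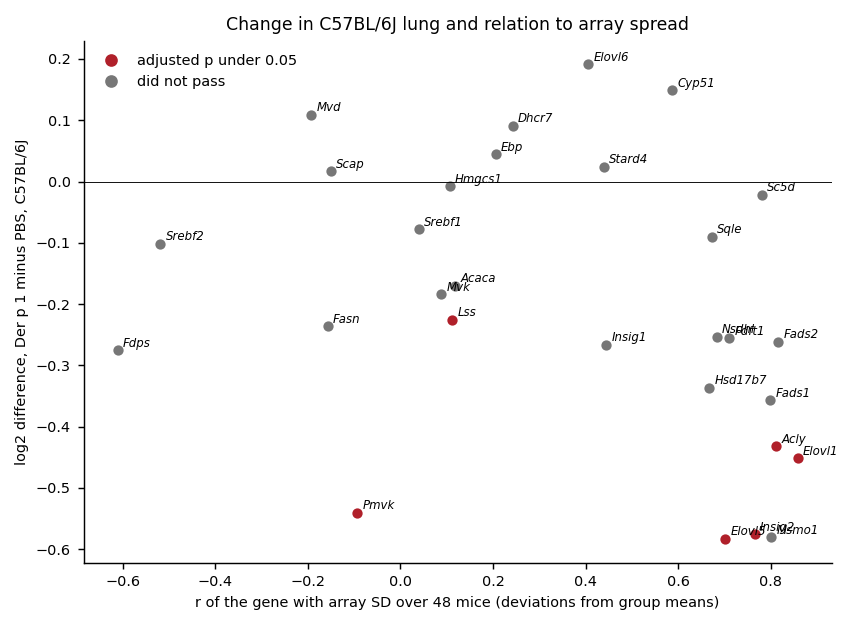
Change after Der p 1 in C57BL/6J (vertical axis, log2) against the correlation of each gene with array SD (horizontal axis), 1 point per gene. Across the 29 genes r was −0.338, and Pmvk and Lss fell while lying near a correlation of 0.

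Promoters of 4 genes are printed to show the letters at genes that fell (Pmvk, Acly, Elovl5) and at a sterol gene whose difference was near 0 (Hmgcs1). They come from RefSeq on GRCm38.p6 and run from 250 bases before to 50 bases after the annotated start, on the gene's strand; capitals mark matches, on either strand, to TCACNCCAC (a sterol regulatory element core), CCAAT (the box bound by NF-Y, the usual partner of the SREBP factors) and CACGTG (an E-box). The windows are chr13:119690101-119690400 (plus strand) for Hmgcs1, chr3:89454291-89454590 (plus strand, the first of 2 windows of the gene) for Pmvk, chr11:100527951-100528250 (minus strand) for Acly and chr9:77917115-77917414 (plus strand) for Elovl5.
Hmgcs1: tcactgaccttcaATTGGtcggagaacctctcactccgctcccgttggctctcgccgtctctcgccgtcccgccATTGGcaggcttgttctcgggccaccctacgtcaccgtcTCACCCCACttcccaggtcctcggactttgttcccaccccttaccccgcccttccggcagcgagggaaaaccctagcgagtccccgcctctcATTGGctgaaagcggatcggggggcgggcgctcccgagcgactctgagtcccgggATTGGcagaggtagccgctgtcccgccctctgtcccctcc
Pmvk: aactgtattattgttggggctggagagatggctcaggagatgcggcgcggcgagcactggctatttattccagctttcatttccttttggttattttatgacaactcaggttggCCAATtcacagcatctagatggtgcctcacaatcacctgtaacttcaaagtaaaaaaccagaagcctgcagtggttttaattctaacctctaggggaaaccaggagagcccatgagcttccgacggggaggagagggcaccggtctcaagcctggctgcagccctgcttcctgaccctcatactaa
Acly: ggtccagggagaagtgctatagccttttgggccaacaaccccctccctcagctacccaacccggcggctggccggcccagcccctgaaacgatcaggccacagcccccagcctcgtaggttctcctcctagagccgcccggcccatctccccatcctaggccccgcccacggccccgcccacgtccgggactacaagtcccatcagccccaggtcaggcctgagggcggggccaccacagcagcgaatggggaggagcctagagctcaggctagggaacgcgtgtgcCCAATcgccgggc
Elovl5: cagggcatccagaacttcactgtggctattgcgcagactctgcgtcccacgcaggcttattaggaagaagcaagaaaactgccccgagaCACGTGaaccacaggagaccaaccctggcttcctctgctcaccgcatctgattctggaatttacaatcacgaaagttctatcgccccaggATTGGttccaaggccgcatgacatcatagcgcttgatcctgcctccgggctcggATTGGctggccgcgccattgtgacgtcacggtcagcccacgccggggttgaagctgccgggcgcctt

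Of the 32 genes, 27 had at least 1 window in the RefSeq table, 37 windows in all. The sterol element core was found in 1 of the 37, that of Hmgcs1, and in 1.24% of the 32851 windows of the table. CCAAT was found in 23 of the 37 (62.2%), against 37.4% of all windows, and CACGTG in 7 (18.9%), against 7.15%. The end of TCACNCCAC can share letters with the start of the other motifs, and no matches overlap in the printed windows. A match describes letters only, and its absence says nothing of the factor. Hmgcs1, the only one with the element, differed by −0.01 in C57BL/6J. The printed windows of Pmvk, Acly and Elovl5 held CCAAT, and the second window of Pmvk did not. CCAAT was found for 22 of the 27 genes, so neither motif sets the genes that fell apart.

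In BALB/cJ, 0 of the 29 genes passed after Der p 1 by limma, where 1.7% of clusters were higher and 0.233% were lower. At an unadjusted p under 0.05, 1 gene was higher and 1 was lower (3.45% each), where 6.57% of all clusters were higher and 5.42% lower, and the median difference was −0.04 against −0.03 over all clusters. Elovl6 ran from 4.17 through 5.38 to 5.83 after PBS and from 4.71 through 5.81 to 6.43 after Der p 1. Its difference of 0.37 ± 0.16 (limma adjusted p = 0.288) came from series 6, at 0.65, with −0.01 in series 5; the difference between the series was not tested. Acly differed by −0.19 ± 0.10 (limma adjusted p = 0.407), with 12 of 14 mice below the PBS mean. Pmvk, at −0.04, had an interval of −0.31 to 0.22, and Insig2, at −0.28, one of −0.60 to 0.05. Without mouse633 and mouse634 the count stayed at 0, while the number of clusters past the threshold rose from 323 to 809.

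**Figure D4:**
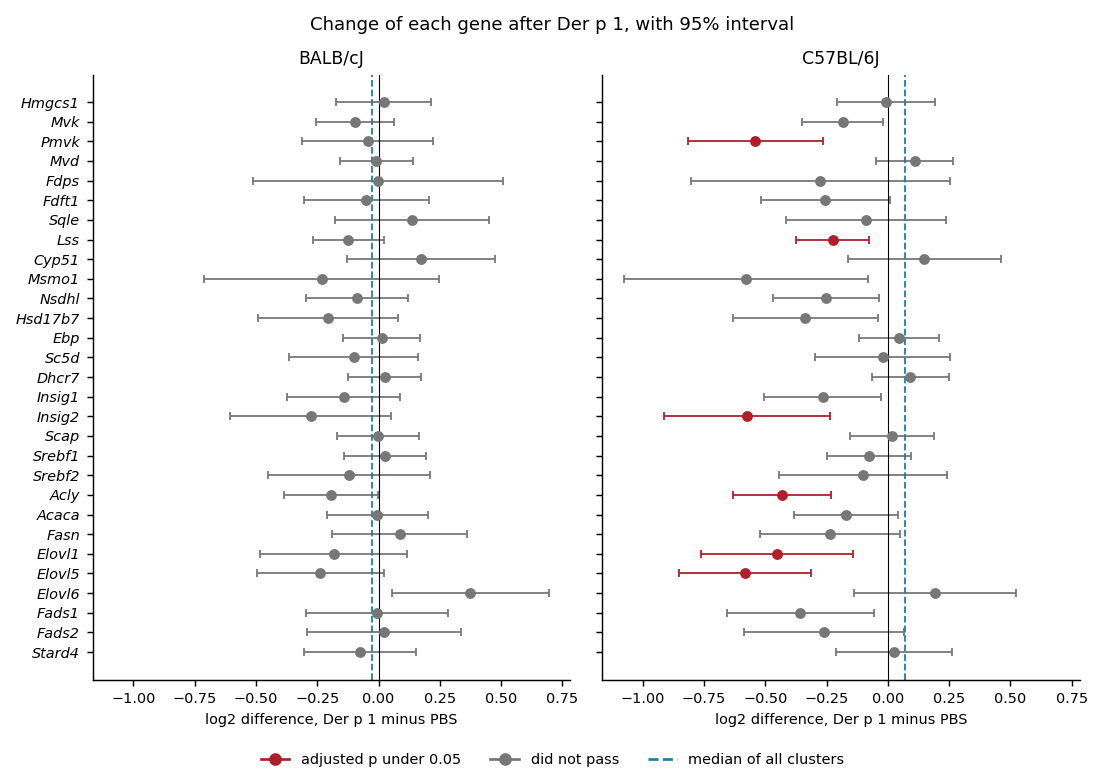
Change after Der p 1 (horizontal axes, log2) of each gene in BALB/cJ and C57BL/6J, with 95% intervals; red marks an adjusted p under 0.05 and the dashed line is the median of all clusters. All 6 red points are lower values in C57BL/6J, and no gene is red in BALB/cJ.

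A change that passed in C57BL/6J and not in BALB/cJ was not thereby different between the strains. The difference of the changes, tested directly as BALB/cJ minus C57BL/6J, passed for 0 of the 29 genes by limma, and for 0.012% of all clusters, which were 2. At an unadjusted p under 0.05 it was above 0 for Pmvk alone (3.45%), at 0.50 ± 0.19 (limma adjusted p = 0.407), and below 0 for no gene. Over all clusters 3.02% were above 0 and 7.81% below 0 at that p, so the share above 0 was near the background. Elovl5 had 0.35 ± 0.19 and Acly 0.24 ± 0.14. For the 8 measured genes of fatty acid synthesis, elongation and desaturation the difference lay above 0 in 8 of 8, from 0.16 to 0.35. Over all 29 genes it was above 0 for 22, and over all clusters for 42.3%. That share is not given for the brighter clusters alone. The median was −0.05 over all clusters, but 0.06 with the dimmest 50% of clusters left out. None of the 8 passed. Other lists had the same sign there. Above 0 were 9 of 9 other sterol and SREBP-linked genes, 10 of 10 alveolar type II markers, 7 of 7 endothelial markers and 6 of 6 fibroblast markers. With array SD as a covariate 6 of the 8 were above 0, with a median of 0.06, and the median of the 29 genes went from 0.16 to 0.00044.

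After PBS, 0 of the 29 genes differed between the strains by limma, where 4.66% of clusters did, 1.9% higher in BALB/cJ and 2.76% lower. At an unadjusted p under 0.05, 2 were higher and 2 lower (6.9% each), near the 5.87% and 6.69% of all clusters, so the values of these 4 genes are given as a description. Nsdhl was higher in BALB/cJ by 0.28 ± 0.11 (limma adjusted p = 0.168) and Stard4 by 0.26 ± 0.12 (limma adjusted p = 0.331). Acaca differed by −0.30 ± 0.11 (limma adjusted p = 0.117) and Fasn by −0.30 ± 0.14 (limma adjusted p = 0.357). Nsdhl passed with array SD as a covariate, at 0.31, and with number series as covariate (limma adjusted p = 0.0374). Probes that lie over sequence differences between the strains were not masked in the strain comparisons.

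After Der p 1, 6 genes were higher in BALB/cJ and 0 lower, where 6.42% of clusters were higher and 6.87% lower. These shares are over all clusters, while 27 of the 29 genes lay above the median signal. A share for clusters of like signal is not given for this comparison. The 6 genes were Pmvk, Nsdhl, Acly, Elovl5, Fads1 and Fads2. Of these, Pmvk, Acly and Elovl5 also fell after Der p 1 in C57BL/6J, but both comparisons use the same 12 Der p 1 mice of that strain, so the values stand side by side and not as separate evidence. Endothelial markers were higher in BALB/cJ for 3 of 7 in the same comparison, Tek by 0.35, Kdr by 0.51 and Cldn5 by 0.42, and 7 of 7 were above 0; the mean level of that list ran from 9.67 to 10.5 in BALB/cJ and from 9.33 to 10.3 in C57BL/6J. With array SD as a covariate none of these 3 passed, and their part in the strain differences was not tested. For each of the 6 genes the ranges of the 2 strains overlapped, and groups that do not overlap were found for 0.413% of all clusters.

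Fads1, the delta-5 desaturase, ran from 9.15 through 9.93 to 10.40 in BALB/cJ and from 8.20 through 9.46 to 9.97 in C57BL/6J. The difference was 0.60 ± 0.14, a 1.51-fold higher signal in BALB/cJ (limma adjusted p = 0.00255), and it was 0.63 in series 5 and 0.64 in series 6. Fads2, the delta-6 desaturase encoded beside it, ran from 7.93 through 9.29 to 9.66 and from 7.58 through 8.64 to 9.19. The ranges overlapped from 7.93 to 9.19, and the median was higher in BALB/cJ, with a difference of 0.52 ± 0.15 (limma adjusted p = 0.0169).

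Nsdhl ran from 8.17 through 8.78 to 9.16 in BALB/cJ and from 7.77 through 8.24 to 8.48 in C57BL/6J, so most BALB/cJ mice lay above the whole C57BL/6J range. The difference was 0.45 ± 0.10 (limma adjusted p = 0.0016). Pmvk differed by 0.46 ± 0.13 (limma adjusted p = 0.0135), with BALB/cJ values of 6.68 to 7.90. Elovl5 differed by 0.41 ± 0.13 (limma adjusted p = 0.0232) and Acly by 0.31 ± 0.09 (limma adjusted p = 0.0185). Elovl5 missed the threshold without mouse532, mouse659 or mouse661. With array SD as a covariate, Acly, Elovl5 and Fads2 no longer passed, at 0.16, 0.22 and 0.25, and in series 5 alone none of the 6 passed.

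Some pairs of these genes correlated from mouse to mouse within groups. Of 16 pairs tested over 48 mice, as deviations from group means with 100000 permutations within groups, the strongest was Sqle with Stard4, at r = 0.836 and rho = 0.856 (permutation test, adjusted p = 5.33e-05 for both, which 3 pairs share as the smallest these permutations can give). The number series were set apart in both genes, so the values within series are given: r = 0.572 in series 5 (permutation test, adjusted p = 0.0658) and 0.798 in series 6. Without the 2 mice farthest from the median Sqle, r was 0.836. Sqle with Cyp51 had r = 0.749 and rho = 0.765, with 0.564 and 0.534 within the series and 0.722 without the 2 farthest mice.

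Hmgcs1 with Sqle had r = 0.334 over all mice and rho = 0.172 (permutation test, adjusted p = 0.0473 and 0.342), and 0.160 without the 2 farthest mice, so the pooled relation rested on those. Within series it was 0.834 in series 5 (permutation test, adjusted p = 0.0401) and 0.614 in series 6 (permutation test, adjusted p = 0.00412). Between the series, Sqle was higher by 0.53 in series 6, and Hmgcs1 differed by −0.07. Hmgcs1 with Srebf2 had r = 0.068 in series 5 and 0.651 in series 6 (permutation test, adjusted p = 0.00064). Hmgcs1 with Top2a, a gene of dividing cells, had r = 0.422 and rho = 0.489 (permutation test, adjusted p = 0.00806 and 0.00328), and 0.416 without the 2 farthest mice. Within series it was 0.551 (permutation test, adjusted p = 0.209) and 0.455 (permutation test, adjusted p = 0.028).

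**Figure D5:**
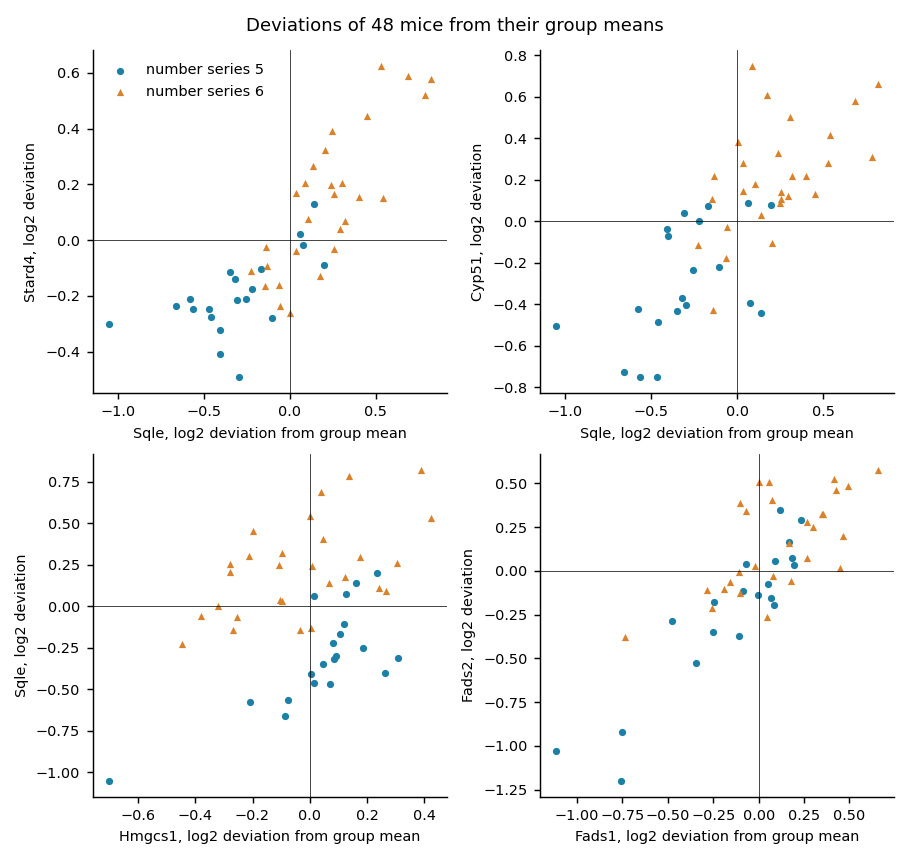
Deviation of each of 48 mice from its group mean (log2, both axes) for 4 pairs of genes; symbols mark the number series. Sqle rises with Stard4 and with Cyp51, Fads1 with Fads2, and Hmgcs1 with Sqle within each series but on separate lines.

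On the fatty acid side, Fads1 with Fads2 had r = 0.826 and rho = 0.742 (permutation test, adjusted p = 5.33e-05 for both), with 0.932 in series 5, 0.658 in series 6, 0.752 without the 2 farthest mice, and 0.524 with number series and array SD removed. Fasn with Acaca had r = 0.394 and rho = 0.471 (permutation test, adjusted p = 0.0215 and 0.00328), with 0.560 and 0.531 within the series and 0.413 without the 2 farthest mice. Fasn with Srebf1 had r = 0.514 and rho = 0.450 (permutation test, adjusted p = 0.00144 and 0.00457), but 0.514 in series 5 (permutation test, adjusted p = 0.231) and 0.304 in series 6 (permutation test, adjusted p = 0.228) did not pass. Fasn with Acly had r = −0.026 over all mice, 0.831 in series 5 and −0.024 in series 6. The correlations of Fasn with the surfactant gene Sftpc (r = −0.170) and the fat cell gene Adipoq (r = 0.044), and of Hmgcs1 with Sftpc (r = 0.0996), did not pass, with permutation adjusted p-values of 0.353, 0.865 and 0.604.

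Over all 406 pairs of the 29 genes the median r was 0.174, from −0.677 to 0.907, and 94 pairs were above 0.5. With array SD removed 35 pairs were above 0.5, with number series removed 55, and with both removed 25, at a median r of 0.138. Pairs of other clusters were not computed. The highest was Msmo1 with Insig2, and it was 0.751 with number series and array SD removed. All pairs share the arrays and their scaling.

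Genes outside the 29, from 3 further lists, were also lower in C57BL/6J, to be read against the 8.97% of all clusters, and 17.3% of those above the median signal, that were lower. Of 9 measured sterol and SREBP-linked genes outside the 29, 4 (44.4%) were lower and 0 higher. Ggps1, which makes geranylgeranyl diphosphate, differed by −0.63 ± 0.15 (limma adjusted p = 0.00344). Lbr, a sterol reductase of the nuclear envelope, differed by −0.55 ± 0.19 (limma adjusted p = 0.0307). Dhdds of dolichol synthesis differed by −0.43 ± 0.12 (limma adjusted p = 0.00974). Mbtps1, the site-1 protease that cuts the SREBP factors, differed by −0.41 ± 0.11 (limma adjusted p = 0.00494). Of 19 further fatty acid and lipogenic genes, 4 (21.1%) were lower and 0 higher, a share near that of the brighter clusters. These were the desaturase Scd2, the glycerol acyltransferase Gpam, the phosphatidate phosphatase Lpin1 and the triglyceride enzyme Dgat2, of which Lpin1 fell most, by 0.67 ± 0.17 on the log2 scale (limma adjusted p = 0.00443). Scd1, the other main stearoyl desaturase of lung, differed by −0.12 ± 0.14 (limma adjusted p = 0.539). Lbr and Gpam missed the threshold with array SD as a covariate. In BALB/cJ, 0 of these 28 genes passed.

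Of 15 genes of sterol uptake, storage and efflux, 6 (40%) were lower and 1 higher in C57BL/6J. Abca1, which exports cholesterol to apolipoproteins, differed by −0.56 ± 0.11 (limma adjusted p = 0.000449), and Nr1h3, the oxysterol receptor LXR-alpha, by −0.61 ± 0.13 (limma adjusted p = 0.00112). Apoe differed by −0.52 ± 0.12 (limma adjusted p = 0.00161) and the sterol hydroxylase Cyp27a1 by −0.51 ± 0.12 (limma adjusted p = 0.00238). Mylip and Vldlr were lower by −0.40 each, and Abcg1, at −0.16 ± 0.11, did not pass. With 1 mouse left out, the call of Vldlr was lost in 29 of 48 fits, that of Gpam in 13, that of Lbr in 7 and that of Mylip in 3. Mylip also missed the threshold with array SD as a covariate.

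Ch25h, which makes 25-hydroxycholesterol, was the gene that rose: from 6.97 ± 0.48 (SD, n = 11) to 8.17 ± 0.78 (SD, n = 12), a difference of 1.20 ± 0.36 (limma adjusted p = 0.0167), with 12 of 12 Der p 1 mice above the PBS mean. In BALB/cJ it differed by 0.94 ± 0.35 (limma adjusted p = 0.191). Between the strains, Acacb, the mitochondrial carboxylase, was higher in BALB/cJ by 0.63 ± 0.11 after PBS (limma adjusted p = 0.000113) and by 0.66 ± 0.11 after Der p 1 (limma adjusted p = 8.97e-06). After PBS, Scd1 differed by −0.53 ± 0.14 (limma adjusted p = 0.0157) and Aacs, acetoacetyl-CoA synthetase, by −0.32 ± 0.07 (limma adjusted p = 0.0035), both lower in BALB/cJ. After Der p 1, 6.42% of all clusters were higher in BALB/cJ and 6.87% lower, and a share for clusters of like signal is not given. In these 3 lists 0 genes were lower there. Higher were 1 of 9 sterol and SREBP-linked genes, 3 of 19 fatty acid genes and 5 of 15 uptake and efflux genes. Besides Acacb they were Apoe by 0.57, Abca1 by 0.54, the lysosomal lipase Lipa by 0.58, the lipoprotein receptor Scarb1 by 0.37, Cyp27a1 by 0.32, Scd2 by 0.32, Pgd of the pentose phosphate route by 0.32 and the thiolase Acat1 by 0.31. With 1 mouse left out, the call of Cyp27a1 was lost in 14 of 48 fits, those of Scd2 and Acat1 in 9 each, and those of Lipa and Pgd in 1 each. With array SD as a covariate the calls of Lipa, Scarb1, Cyp27a1, Scd2, Pgd and Acat1 were lost. The calls of Cyp27a1, Scd2 and Acat1 were also lost without mouse633 and mouse634.

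Markers of several cell types moved beside the falls in C57BL/6J, where 8.97% of all clusters were lower and 9.85% higher. Among clusters above the median signal 17.3% were lower and 8.72% higher. Of 10 alveolar type II markers 2 (20%) were lower, Napsa and Lpcat1, a share near that of the brighter clusters. The mean level of the list ran from 10.97 to 11.2 after PBS and from 10.4 to 11.3 after Der p 1. Of 7 endothelial markers 4 were lower (10.0 to 10.4 after PBS, 9.33 to 10.3 after Der p 1), and of 7 fat cell markers 2 were lower, Adipoq and Cidec (5.17 to 6.48 and 5.23 to 5.91). Macrophage markers were higher for 3 of 9 (6.99 to 7.87 and 7.02 to 8.81) and dividing cell markers for 8 of 9 (5.12 to 6.15 and 5.86 to 7.67). Fibroblast markers were higher for 3 of 6, among them Col1a1 by 1.22, and lower for 1, Dcn, by −1.31 (8.40 to 9.25 and 8.42 to 9.54). Of 9 epithelial and muscle markers of lung 3 were lower, Cyp2f2 by −0.76, Hopx by −0.47 and Rtkn2 by −0.42, and 1 was higher, Scgb1a1 by 0.29 (9.74 to 10.3 and 9.46 to 10.3). Of 4 red cell, heart and skeletal muscle markers Alas2 was lower, by −0.82 (6.37 to 8.67 and 6.26 to 7.68). With array SD as a covariate the calls of Napsa, Lpcat1, Cdh5, Emcn, Hopx, Rtkn2, Scgb1a1, Alas2, Col1a1, Col1a2 and Col3a1 were lost. No list was at 0 in a group, since RMA gives every cluster a positive value. In BALB/cJ, where 0 of the 29 genes passed, 1.7% of all clusters were higher and 0.233% lower. There 9 of 9 dividing cell markers, 3 of 9 macrophage markers and 3 of 6 fibroblast markers were higher. Endothelial markers were lower for 1 of 7 and fat cell markers for 0 of 7, with 7 of 7 below 0 in both lists. Alveolar type II markers were higher for 1 of 10, and epithelial and muscle markers higher for 1 of 9 and lower for 1. The part of these cells in the falls of Acly, Elovl5, Insig2 and the other genes was not tested.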

How the data were processed

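Transcript levels were measured on mouse exon arrays in RNA from the right lower lobe, depleted of ribosomal RNA. The deposited table holds log2 values, which the authors obtained with RMA on core exons in Partek Genomics Suite, per the submitters' processing notes; the version was not given in the sources used here. Values ran from 1.27 to 13.8, and array medians from 6.39 to 6.62. Raw intensities were not used here, so detection above background was not assessed. An array has no read depth, and the number of arrays limits the precision: between arrays of a mouse the median SD of the 29 genes was 0.138, and within groups it was 0.325 between mice at the median gene.

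Groups were taken from the labels. Clusters were named through the platform's annotation: 1016 of 16715 carried several symbols and 740 none, 14904 matched a current gene number, and 0 symbols changed. Each measured gene had 1 row. The members and lists were chosen with earlier results of these data known. Genes named are all 32, the genes of the 3 other pathway lists that passed in a comparison, and Scd1, Abca1 and Abcg1; other genes of that rule are not reported here. Marker genes were named after their values were seen. One mean per group was fitted with limma 3.58.1 in R 4.3.3 (lmFit and eBayes, on mouse means), and p-values were adjusted by Benjamini and Hochberg over all 16715 clusters of a comparison at 0.05. Each p measures the spread between these mice. Correlations were computed with Python 3.11.15, numpy 2.4.6 and scipy 1.17.1, two-sided, for 16 of 20 listed pairs; the others lacked a row. The fit was tested on simulated data.

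Alternatives were quantile normalization, centring of each array, first arrays only, dropping the dimmest 25% or 50% of clusters before the fit, a robust trended prior, array weights, compared groups only, number series as a covariate or alone, array SD as a covariate, averaging of a gene's rows, leaving out mouse633 and mouse634, and leaving out each mouse. Added after seeing the data were number series with array SD, and arrays scaled to 1 SD.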

Additional observations from a re-analysis of the deposited data

How the results depend on the processing

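Counts of the 29 genes past the threshold depended on scaling and batch terms. After Der p 1 in C57BL/6J the count of 6 was 11 with each array centred, where 12.9% of all clusters were lower. It was 12 with array weights (17.9% of all clusters lower), 12 with the number series as a covariate (15.6%) and 0 in series 5 alone (0.574%). With number series and array SD together it was 3 (3.76%). Leaving out 1 mouse, it ran from 4 without mouse656 (6.66%) or mouse657 (7.77%) to 10 without mouse531 (13.3%). The fit without mouse531 adds Msmo1, Nsdhl, Hsd17b7 and Fads1. Centring moved the split of all clusters from 1646 higher and 1500 lower to 1068 and 2148, and scaling to 1 SD to 1140 and 1886. Between strains after Der p 1 it went from 1073 and 1149 to 1452 and 826 with centring, and to 1265 and 857 with scaling. In BALB/cJ the count of 0 was 1 with array weights (Elovl6, higher), 1 with array SD (Acly, lower), 2 with number series and array SD (Acly and Elovl5, lower) and 1 with arrays scaled to 1 SD (Acly). Of all clusters 8.14%, 4.48%, 6.79% and 2.42% passed in these settings, in that order. The count of 0 for the difference between the changes was 1 with array weights (Elovl5), where 10.5% of all clusters passed. The compared groups alone give no value for that difference. Between strains after PBS the count of 0 was 1 with quantile normalization, the number series, array SD or scaling (Nsdhl in each), 1 with array weights (Acaca) and 2 with number series and array SD (Nsdhl and Fads1). Of all clusters 4.97%, 6.74%, 7.44%, 4.96%, 10.6% and 9.33% passed in these settings, in that order. After Der p 1 the count of 6 was 3 with the compared groups only and 0 in series 5 alone, and 5 to 7 with 1 mouse left out. With array SD as a covariate 4 genes passed there, of which Sc5d, at -0.30, was lower. The shares of all clusters in these settings of that comparison are not given. A loss of calls in these genes is therefore not set apart from one over the whole array. Other alternatives kept each count within 1.5 times. Fdps passed at -0.64 with array SD as a covariate in C57BL/6J (limma adjusted p = 0.0482). The correlation of Fasn with Scd1, -0.035 as reported, was 0.580 with number series removed and 0.792 in series 5 alone, and that of Fasn with Acly was 0.831 in series 5 alone; the cause was not tested. The mean of a gene's rows changed nothing, since each gene had 1. No paired analysis was possible because the labels tie no lung of one group to a lung of another.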
